A study of Mus musculus with 24 samples.

Results

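Forelimb buds of C57BL/6J mouse embryos at gestational day E10.5 were profiled for 2 modifications of the same residue, lysine 27 of histone H3. Acetylation (H3K27ac) and trimethylation (H3K27me3) were each mapped in 2 chromatin immunoprecipitation libraries of whole forelimb bud, and the authors deposited 1 peak list per library. All 4 libraries came from wild-type limb buds with no treatment, and the labels do not say how many embryos or litters were pooled. For each mark the 2 lists were merged wherever peaks overlapped or abutted, and a merged region was kept if at least 1 bp of it was covered in both lists. This left 8514 H3K27ac regions and 5752 H3K27me3 regions, 14266 of the 30269 regions found the same way in both limbs at E10.5, from 4 of the 24 samples in the series. Hindlimb bud lists of the same strain, stage and marks are given only where they show how the forelimb stands. All coordinates are of the mm9 build.

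H3K27me3 is deposited by Polycomb repressive complex 2 and is known for broad coverage of developmental regulator genes in tissues where those genes are silent. H3K27ac is deposited by p300 and CBP and marks active promoters and enhancers. A single lysine cannot carry both groups, so coverage by both marks in bulk tissue can come from different nucleosomes, alleles or cells. The limb bud at this stage holds mesenchyme, ectoderm with its apical ridge, endothelium, blood, nerve and migrating muscle precursors. In bulk tissue a mark in fewer cells and a weaker mark per cell cannot be told apart.

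The 4 libraries differed in more than the mark. Per the labels the H3K27ac libraries were multiplexed and paired-end and the H3K27me3 libraries were single-end, with an antibody from another supplier, so mark, run type and antibody cannot be told apart. The H3K27ac lists held 21363 and 13589 peaks and the H3K27me3 lists 12384 and 10477. Read depth is not part of the lists and is unknown. Of the peaks of the longer H3K27ac list, 45.7% were found in the other, against 79.6% of the shorter list's peaks. For H3K27me3 the shares were 62.9% and 84.9%, and the regions kept were 37.2% of the H3K27ac union and 48.3% of the H3K27me3 union. Nothing says that the replicates were separate litters, so the spread between them may be technical.

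Promoters of 3 genes that recur below show what such loci look like in sequence. Twist1, a mesenchymal transcription factor, lay in a window with H3K27ac regions alone, Sox2, a neural and pluripotency factor, in a window with H3K27me3 regions alone, and Hand2, a posterior limb regulator, in a window with both. The 250 bases upstream of each start are given 5′ to 3′ on the + strand from the RefSeq table of GRCm38.p6, at chr12:33957421-33957670, chr3:34649745-34649994 and chr8:57320733-57320982. Capitals mark each CG, the 2-base sequence whose density defines CpG islands. The build differs from that of the peaks, so no peak was placed on these bases.
Twist1: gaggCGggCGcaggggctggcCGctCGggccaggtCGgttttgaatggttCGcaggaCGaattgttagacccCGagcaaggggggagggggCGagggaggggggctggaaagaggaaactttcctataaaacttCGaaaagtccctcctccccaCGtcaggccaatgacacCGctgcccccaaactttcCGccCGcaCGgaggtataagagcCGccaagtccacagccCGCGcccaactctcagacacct
Sox2: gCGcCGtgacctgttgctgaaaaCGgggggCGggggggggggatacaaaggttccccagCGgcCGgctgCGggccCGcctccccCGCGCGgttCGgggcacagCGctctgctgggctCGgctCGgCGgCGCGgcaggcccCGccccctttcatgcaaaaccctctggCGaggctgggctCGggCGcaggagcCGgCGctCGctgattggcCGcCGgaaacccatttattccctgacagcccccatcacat
Hand2: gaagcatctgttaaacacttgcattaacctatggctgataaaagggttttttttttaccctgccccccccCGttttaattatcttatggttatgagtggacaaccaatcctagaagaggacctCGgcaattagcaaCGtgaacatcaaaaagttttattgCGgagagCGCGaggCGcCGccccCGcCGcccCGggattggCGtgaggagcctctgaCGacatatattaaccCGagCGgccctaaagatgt
The 3 sequences held 18, 27 and 15 CG in the same order, against a median of 6 over the 32851 promoters of the table, of which 37.8% held 10 or more. Among genes of the windows described below, the median was higher whichever mark covered more of the window. For a gene with several promoters the one with the most CG was taken, as at Pax2, with 5 to 25. The table's median counts every promoter, so the choice can only raise the window values against it. It was 13 in windows with more H3K27ac (10 of 17 genes with 10 or more), 15.5 in windows with more H3K27me3 (10 of 14) and 13.5 where the lists overlapped (13 of 18). Of 81 genes looked for, 49 were in the table. Genes were sorted by the whole window and not by marks at their promoters, and many came from HoxA and HoxD. Hoxa13, with 35 CG, thus counted under more H3K27ac. The Hba genes counted under overlapping lists, although their window held no region of either mark.

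The number of peaks, the upper tail of widths and clustering separated the lists of the 2 marks, while median width and covered sequence did not. H3K27me3 peaks had the longer upper tail of widths, while typical peaks of both marks were of similar width. The 95th percentile of width was 1560 and 1186 bp in the H3K27ac lists and 2168 and 1786 bp in the H3K27me3 lists. The groups did not overlap, and the means were 1373 ± 264 bp and 1977 ± 270 bp (SD, n = 2 lists each; exact permutation test over lists, two-sided, p = 0.33, the smallest that 2 against 2 can give). Peaks of at least 2 kb made up 1.76% and 0.552% of the H3K27ac lists and 6.18% and 3.62% of the H3K27me3 lists, again without overlap and with the same exact p of 0.33. With lists cut to equal length the 95th percentiles of the marks overlapped (difference 470 bp, exact permutation p = 0.667). The shares of at least 2 kb still did not (3.31 percentage points, exact permutation p = 0.33). With the 4 hindlimb lists added, 4 lists against 4 gave an exact permutation p of 0.0286 for both measures. It is the smallest possible when labels move freely over all lists. Limbs were not kept apart in it, although they differed. Peaks of at least 2 kb made up 12.7 and 10.5% of the hindlimb H3K27me3 lists. No permutation within limbs was run.

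Median peak width did not separate the marks. It was 579 and 438 bp for H3K27ac and 570 and 551 bp for H3K27me3, with overlapping lists (exact permutation p = 1). The difference of 52 bp became -131 bp with lists cut to equal length and -18.5 bp without the second H3K27ac list. Covered sequence also overlapped, at 14.7 and 7.63 Mb for H3K27ac and 9.93 and 7.56 Mb for H3K27me3 (exact permutation p = 0.667). Without the first H3K27ac list the H3K27me3 mean was 1.11 Mb higher rather than 2.41 Mb lower.

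**Figure D1:**
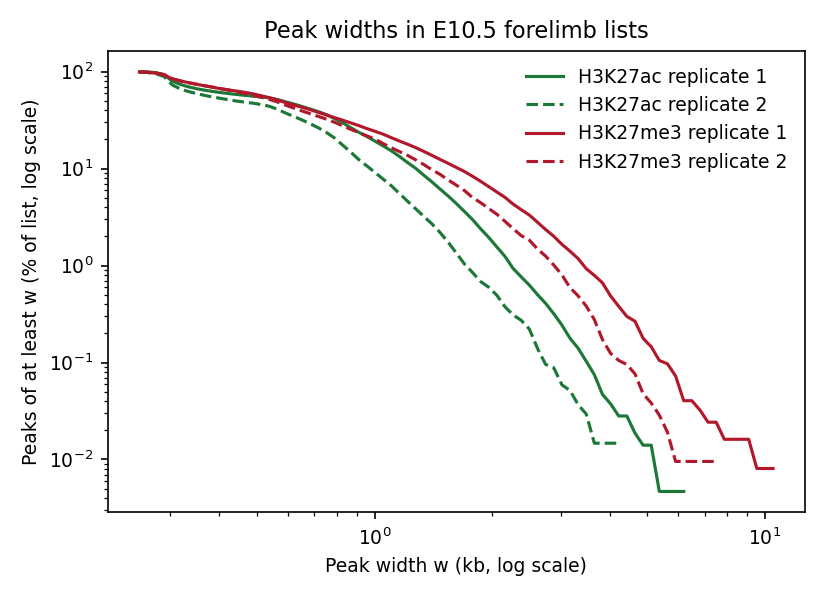
Share of peaks in each forelimb list (vertical axis, percent, log scale) that are at least as wide as the value on the horizontal axis (kb, log scale). The 2 H3K27me3 curves run above both H3K27ac curves at 2 kb, where the lists hold 6.18% and 3.62% against 1.76% and 0.552%.

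Regions found in both replicates showed the same contrast. H3K27ac regions spanned a median of 1029 bp and at most 6433 bp, and 610 of 8514 (7.16%) spanned at least 2 kb. H3K27me3 regions spanned a median of 1194 bp and at most 10990 bp, and 1266 of 5752 (22.0%) spanned at least 2 kb. At 5 kb or more there were 10 H3K27ac regions and 87 H3K27me3 regions, and at 10 kb or more 0 and 3.

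The region with the most H3K27me3 was chr8:72403115-72414104, with 10.954 and 10.346 kb covered in the 2 lists. It was followed by chr16:91220987-91231537 and chr19:43683715-43693739, with 10.278 and 10.243 kb and 9.836 and 9.056 kb. The fourth, chr12:57788593-57798424, with 9.546 and 9.104 kb, lay in a window placed around Pax9, a paired-box factor of the pharyngeal and skeletal mesenchyme. None of these 4 held an H3K27ac peak in either forelimb list.
The most H3K27ac lay in chr5:143579516-143585603, with 6.001 and 5.610 kb. The next were chr6:52165634-52172066 in HoxA, with 6.433 and 5.039 kb, and chr5:120284635-120290825 at Tbx5, the forelimb-expressed T-box factor, with 6.151 and 4.497 kb. HoxD held the fifth (chr2:74526722-74532070), with 4.940 and 4.669 kb. Of the 10 H3K27ac regions with the most covered bases, 5 lay in windows of HoxA, HoxD or Tbx5.

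Clustering separated the marks as well. Regions were joined into a group where no more than 10 kb separated neighbours of the same mark, and a region counted as clustered in a group of 3 or more. By this rule 876 of 8514 H3K27ac regions (10.3%, 95% Wilson interval 9.66 to 10.95%) and 2691 of 5752 H3K27me3 regions (46.8%, 45.5 to 48.1%) were clustered. The intervals cover counting error only. The hindlimb shares were 12.1% and 40.3%. Measured on single lists, 36.7 and 29.8% of H3K27ac peaks and 63.1 and 69.5% of H3K27me3 peaks were clustered, without overlap (exact permutation p = 0.33). For 4 lists against 4, with limbs again not kept apart, the exact permutation p was 0.0286.

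The typical H3K27ac region stood alone. Single regions made up 66.9% of H3K27ac and 31.6% of H3K27me3, and the median gap between neighbours was 74.8 kb against 12.4 kb. Groups of 3 or more numbered 237 for H3K27ac and 505 for H3K27me3 and held 11.1% and 49.4% of covered bases. Groups covering at least 10 kb numbered 5 and 120 and held 1.11% and 24.9%. Much of the clustering was at short range, since merging peaks up to 1 kb apart before grouping left 3.86% of H3K27ac and 9.52% of H3K27me3 regions clustered.

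**Figure D2:**
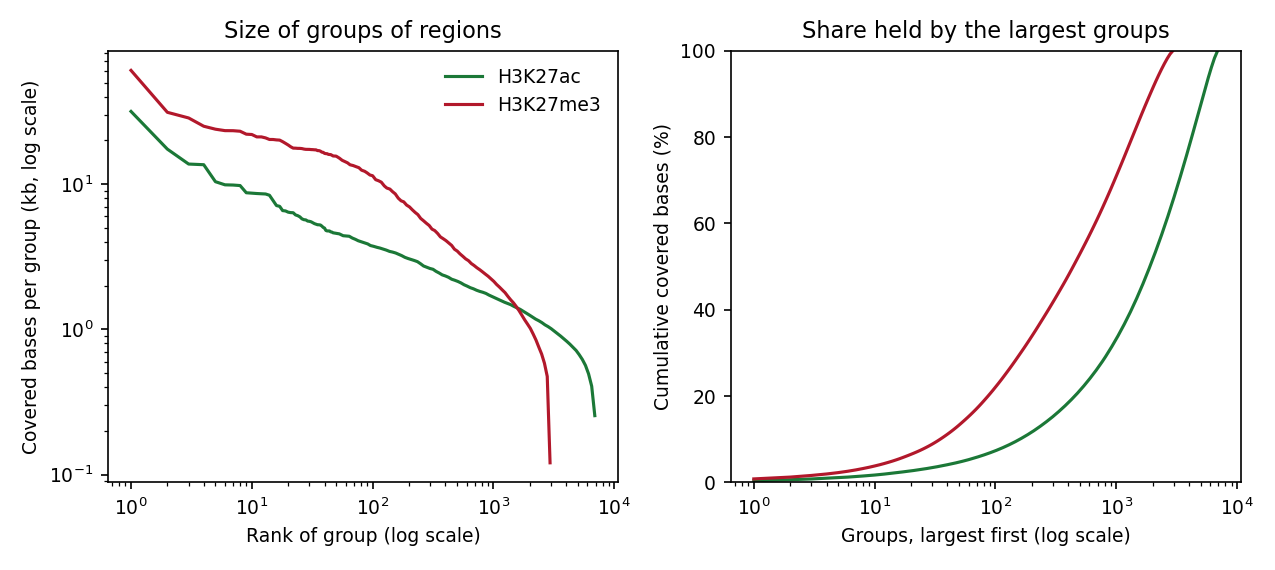
Groups of regions joined within 10 kb, ordered by covered bases. The left panel gives covered kb per group against rank (both log scales) and the right panel the cumulative percent of covered bases against the number of groups (log scale). The 50 largest groups held 13.3% of H3K27me3 bases and 4.70% of H3K27ac bases, and the largest group of each mark is the one at HoxC and at HoxA.

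Among the 10 largest H3K27me3 groups were homeobox, paired-box, zinc-finger and Wnt loci. The largest was at HoxC (chr15:102738457-102826835), with 40 regions and 64.0 and 62.2 kb covered. The H3K27ac lists covered 0.777 and 0.299 kb of it. The second, at Zic1 and Zic4 (chr9:91245569-91301486), factors of neural tube and somite, held 25 regions and 33.3 and 32.0 kb. HoxB followed (chr11:96028004-96068371), with 20 regions and 28.9 and 29.3 kb, and then Gata4, a cardiac and endodermal factor (chr14:63857399-63891366), with 17 regions and 25.2 and 25.9 kb. Groups at Wnt1 (25.9 and 23.0 kb), Pax6 (26.6 and 22.6 kb) and Pax2 (25.7 and 20.9 kb) were also among the 10. The other 3 were at chr4:115600437-115653360, chr17:86004627-86046280 and chr1:78185989-78217040, outside any window, and none of the 3 held H3K27ac in a forelimb list.

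Among the 10 largest H3K27ac groups were Hox clusters, histone genes and limb regulators. HoxA came first (chr6:52152701-52200045), with 13 regions and 36.6 and 28.8 kb, and HoxD second (chr2:74513607-74553377), with 11 regions and 23.2 and 15.7 kb. The third and the eighth (chr13:23621573-23678807 and chr13:23830090-23856382) lay in the Hist1 cluster of replication-dependent histone genes. They held 22.4 and 11.4 kb and 10.6 and 9.89 kb, with no H3K27me3 in either list. Tbx5 (chr5:120279231-120290825, 11.1 and 8.67 kb) and Lmx1b, the dorsal selector gene of the limb (chr2:33484915-33501743, 14.0 and 8.37 kb), were also among the 10.

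The marks differed in how their covered bases were spread over chromosomes. A limma fit on the log2 percent of covered bases over 20 chromosomes called 14 at a Benjamini-Hochberg adjusted p below 0.05, 6 of 20 (30%) with a higher H3K27me3 share and 8 of 20 (40%) with a higher H3K27ac share. Shares sum to 100% in a list, so calls in the 2 directions are tied to each other.

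Chromosome 19 leaned most toward H3K27me3, with 2.98 and 3.11% of H3K27ac bases and 4.37 and 4.47% of H3K27me3 bases, a log2 difference of 0.54 ± 0.04 (SE, adjusted p = 2.76e-06). Chromosome 15, which carries HoxC and Wnt1, followed at 0.36 ± 0.04 (adjusted p = 2.96e-05), then chromosomes 5, 4, 7 and 2 at 0.23, 0.18, 0.16 and 0.15. Chromosome 16 leaned most toward H3K27ac, with 3.32 and 3.40% of H3K27ac bases against 2.11 and 2.11% of H3K27me3 bases, a log2 difference of -0.67 ± 0.03 (adjusted p = 6.25e-07). Chromosomes 3 and 18 followed at -0.57 ± 0.04 and -0.52 ± 0.04, then 6, 10, 17, 14 and 9 at -0.25, -0.20, -0.17, -0.13 and -0.12. Chromosome 6 was on this side although it holds the HoxA group of both marks. By share of peaks in place of bases, chromosomes 2, 7, 9, 14 and 17 were no longer called, which left 4 toward H3K27me3 and 5 toward H3K27ac. Without either H3K27me3 list, 2 and 3 were called, 15 and 19 and 3, 16 and 18, with the lone H3K27me3 list assumed to vary like the H3K27ac lists and an SE of 0.11 throughout. The differences themselves moved little, as on chromosome 5, at 0.24 and 0.22.

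**Figure D3:**
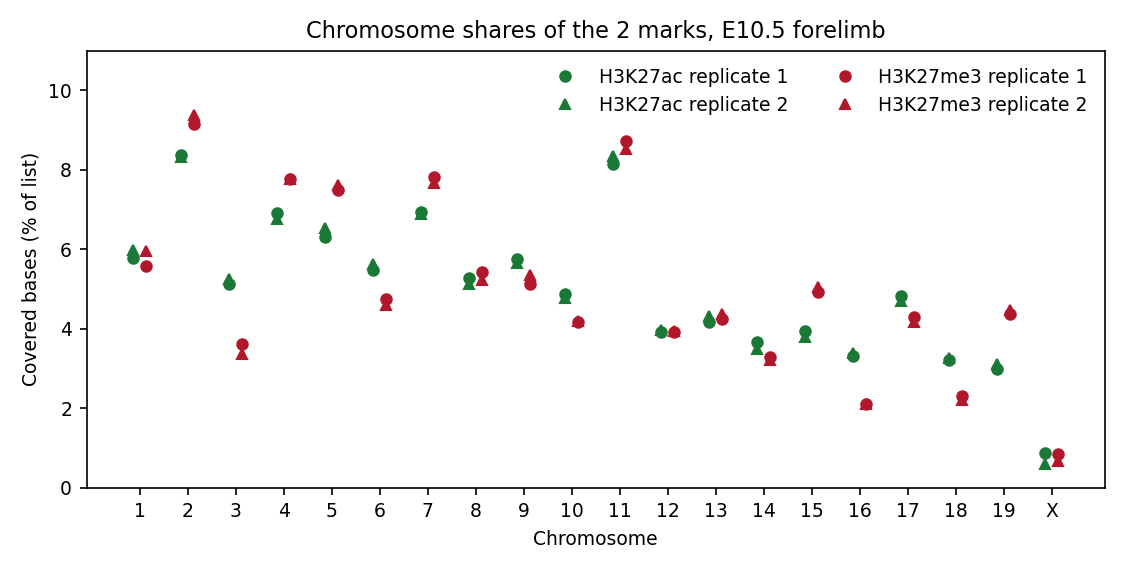
Percent of each forelimb list's covered bases (vertical axis) on each chromosome (horizontal axis), with a circle for replicate 1 and a triangle for replicate 2. Replicates of a mark nearly coincide on chromosome 16, at 3.32 and 3.40% for H3K27ac and 2.11 and 2.11% for H3K27me3, and on chromosome 19 the order of the marks is turned round.

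Most regions of each mark lay more than 10 kb from the other mark. The nearest H3K27me3 region was a median of 185 kb from an H3K27ac region (interquartile range 66.0 to 451 kb), and the nearest H3K27ac region 82.4 kb from an H3K27me3 region (30.8 to 189 kb). The lists held more H3K27ac than H3K27me3 regions to be near. Distances that the spacing of the regions alone would give were not computed, so the values do not show that the marks avoid each other. Within 10 kb of the other mark lay 494 of 8514 H3K27ac regions (5.80%) and 636 of 5752 H3K27me3 regions (11.1%). In the hindlimb these shares were 8.93% and 14.6%. The H3K27me3 share was 25.6% without the second H3K27ac list and 5.70% with the top 50% of peaks by score, and the H3K27ac share 9.42% without the second H3K27me3 list and 3.40% with the top 50%.

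Large H3K27me3 groups were farther from acetylation than single regions. The 703 regions in groups of 10 or more lay a median of 138 kb from the nearest H3K27ac region, 37 of them (5.26%) within 10 kb and 5 (0.711%) touching it. The 1815 single regions lay a median of 74.6 kb away, 229 (12.6%) within 10 kb and 64 (3.53%) touching. Groups of 3 to 9 were like single regions in distance, at 74.8 kb. Regions of a group share their surroundings, so these are descriptions without a test.

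**Figure D4:**
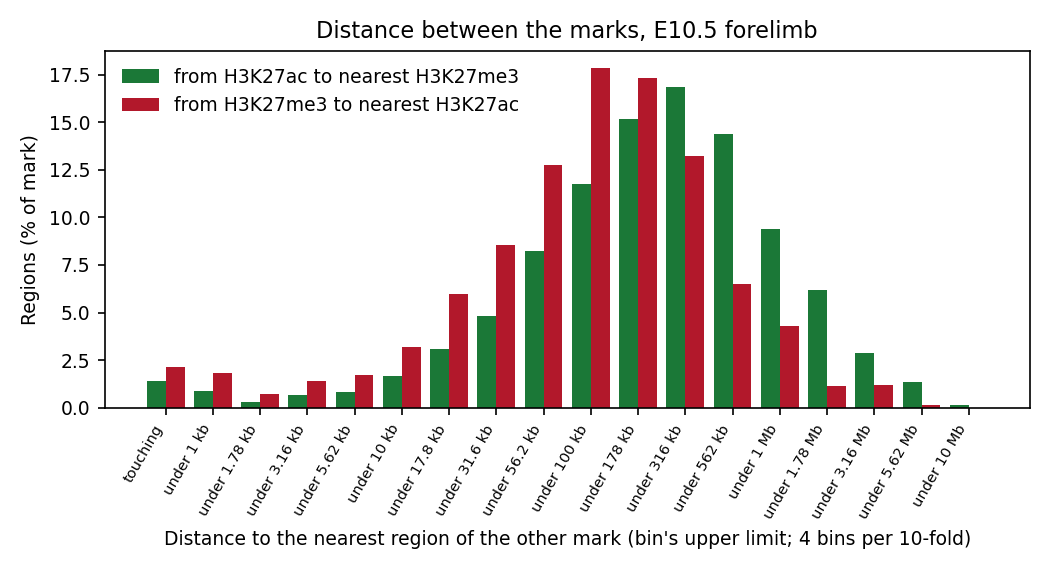
Percent of regions of each mark (vertical axis) by distance to the nearest region of the other mark, in bins with 4 steps per 10-fold and touching regions at the left. Both marks peak beyond 50 kb, and touching regions are 1.42% of H3K27ac and 2.16% of H3K27me3.

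Direct overlap was rare. Of 8514 H3K27ac regions, 121 (1.42%, 95% Wilson interval 1.19 to 1.70%) shared at least 1 bp with one of 124 H3K27me3 regions, and together they shared 66.2 kb, a median of 503 bp per H3K27ac region. Of the 121, 68 shared at least 50% of their span with H3K27me3, and 29 lay wholly inside it. The median width of the 121 was 888 bp, against 1029 bp for all H3K27ac regions. Touching H3K27ac regions ranked lower by the authors' peak score within each list, with a median percentile of 63.8 against 77.1 for all regions in the first list and 48.3 against 65.0 in the second. For H3K27me3 the percentiles were 70.3 against 73.8 and 58.2 against 65.4. In the hindlimb 292 of 9115 H3K27ac regions (3.20%) touched H3K27me3.

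Single lists gave the same low range. Between 177 of 13589 peaks (1.30%) and 719 of 21363 peaks (3.37%) of an H3K27ac list touched a peak of an H3K27me3 list, depending on the pair. Only 23 overlaps (0.455%) were left among the top 50% of peaks of each list by score, and 519 (2.43%) were counted without the second H3K27ac list.

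The largest overlap was at Lmx1b (chr2:33497098-33501743). There H3K27ac covered 4.583 and 2.783 kb and H3K27me3 2.129 and 0.896 kb of the same region, with 2.129 kb shared. Lmx1b is expressed in dorsal but not ventral limb mesenchyme. The second was chr12:74146247-74147681, outside any window, where both H3K27me3 lists covered all 1.435 kb. The third (chr7:149845916-149847649) lay in a window placed around Igf2, an imprinted growth factor gene expressed from the paternal allele, with 1.693 and 1.560 kb of H3K27ac and 0.980 and 1.257 kb of H3K27me3. The ninth (chr8:94323424-94324505) lay at Irx3, a homeobox gene of proximal and anterior limb bud, with 0.730 and 1.082 kb of H3K27ac and 1.082 and 0.824 kb of H3K27me3. HoxA, HoxD, Hand2, Igf2 and Irx3 held 2 overlaps each and HoxC and Lmx1b 1 each, which left 109 of 121 outside the windows. The Igf2 and Irx3 windows were placed after their overlaps had been seen.

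Boundaries were sought where a block of 1 mark passed into a block of the other. Neighbouring regions of a mark no more than 10 kb apart formed a block, and 2 adjoining blocks of different marks made a boundary where they were at most 10 kb apart and each covered at least 2 kb on average. Of 1680 blocks of that size few met this rule, and 17 boundaries were found, 13 with H3K27me3 on the lower-coordinate side and 4 with H3K27ac there. Gaps ran from -0.851 kb, an overlap, to 9.137 kb, with a median of 5.066 kb. The hindlimb had 16, and 6 of the 17 forelimb boundaries had a hindlimb boundary of the same order within 10 kb. The count depended on the rule. It was 0 with blocks of at least 4 kb, 5 with the top 50% of peaks, and 39 without the second H3K27ac list.

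The boundary with the most covered bases on its smaller side was at HoxC, the cluster whose 5′ genes are expressed in hindlimb and posterior trunk. Counting only its 40 replicated regions, H3K27me3 covered 61.0 and 60.3 kb from the Hoxc13 side, ending at 102826835. After a gap of 3.941 kb, 4 H3K27ac regions at chr15:102830777-102846639 covered 4.14 and 2.68 kb on the Hoxc4 side. The hindlimb lists differed within the H3K27me3 block, with 18.8 and 25.1 kb of H3K27ac and 35.0 and 32.1 kb of H3K27me3. The forelimb H3K27ac lists covered 0.777 and 0.299 kb there. Within the H3K27ac block the forelimb H3K27me3 lists covered 1.53 and 1.10 kb, and the only HoxC overlap of the marks was there, with an H3K27me3 region at chr15:102845620-102846511. With regions under 1 kb left out, HoxC was no longer among the boundaries.

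HoxD, whose genes act in early proximal and later distal limb, changed mark inside the cluster. H3K27me3 lay on the side of Evx2 and Hoxd13, in 17 regions from chr2:74485289 to 74520758, and H3K27ac in 10 regions from 74519908 to 74553377, on the side of the 3′ genes that are expressed first. The 3 H3K27me3 regions of the block at the boundary covered 3.63 and 1.86 kb, and the H3K27ac block 19.6 and 14.6 kb. The blocks overlapped by 0.851 kb. Over the whole window, H3K27ac covered 27.2 and 17.8 kb and H3K27me3 24.6 and 19.1 kb, and these totals overlapped. The separation was not complete. A small H3K27ac region (chr2:74513607-74514067, 301 and 290 bp) lay inside H3K27me3 on the Hoxd13 side. Past the H3K27ac block, an H3K27me3 region (chr2:74583375-74585441) was followed by 2 more H3K27ac regions, at 74587476 and 74590575.

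HoxA ran the other way along the chromosome but had the same layout by gene order. H3K27ac regions lay between 52152701 and 52200045, and 15 H3K27me3 regions between 52195238 and 52227068, on the side of Hoxa13, the autopod gene at the 5′ end. Where the marks met, short H3K27me3 regions were interspersed with the last 2 H3K27ac regions, which breaks the blocks, and the rule gave no boundary. With regions under 1 kb left out it gave 1, between H3K27ac at chr6:52152701-52197175 (mean 29.5 kb covered) and H3K27me3 at chr6:52202248-52227068 (12.3 kb), 5.072 kb apart. Of the blocks facing each other at these 3 changes of mark, H3K27me3 was the one on the side of Hoxa13, Hoxc13 and Hoxd13.

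HoxB had no such boundary. Its H3K27me3 lay in 37 regions (53.8 and 50.3 kb) from the Hoxb13 side onward, and 4 H3K27ac regions lay on the Hoxb1 side (9.50 and 7.12 kb of H3K27ac over the window). The widest H3K27ac region there, chr11:96213220-96216718, covered 3060 and 3221 bp. An H3K27me3 region of 1918 and 1787 bp (chr11:96226721-96228671) followed it.

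**Figure D5:**
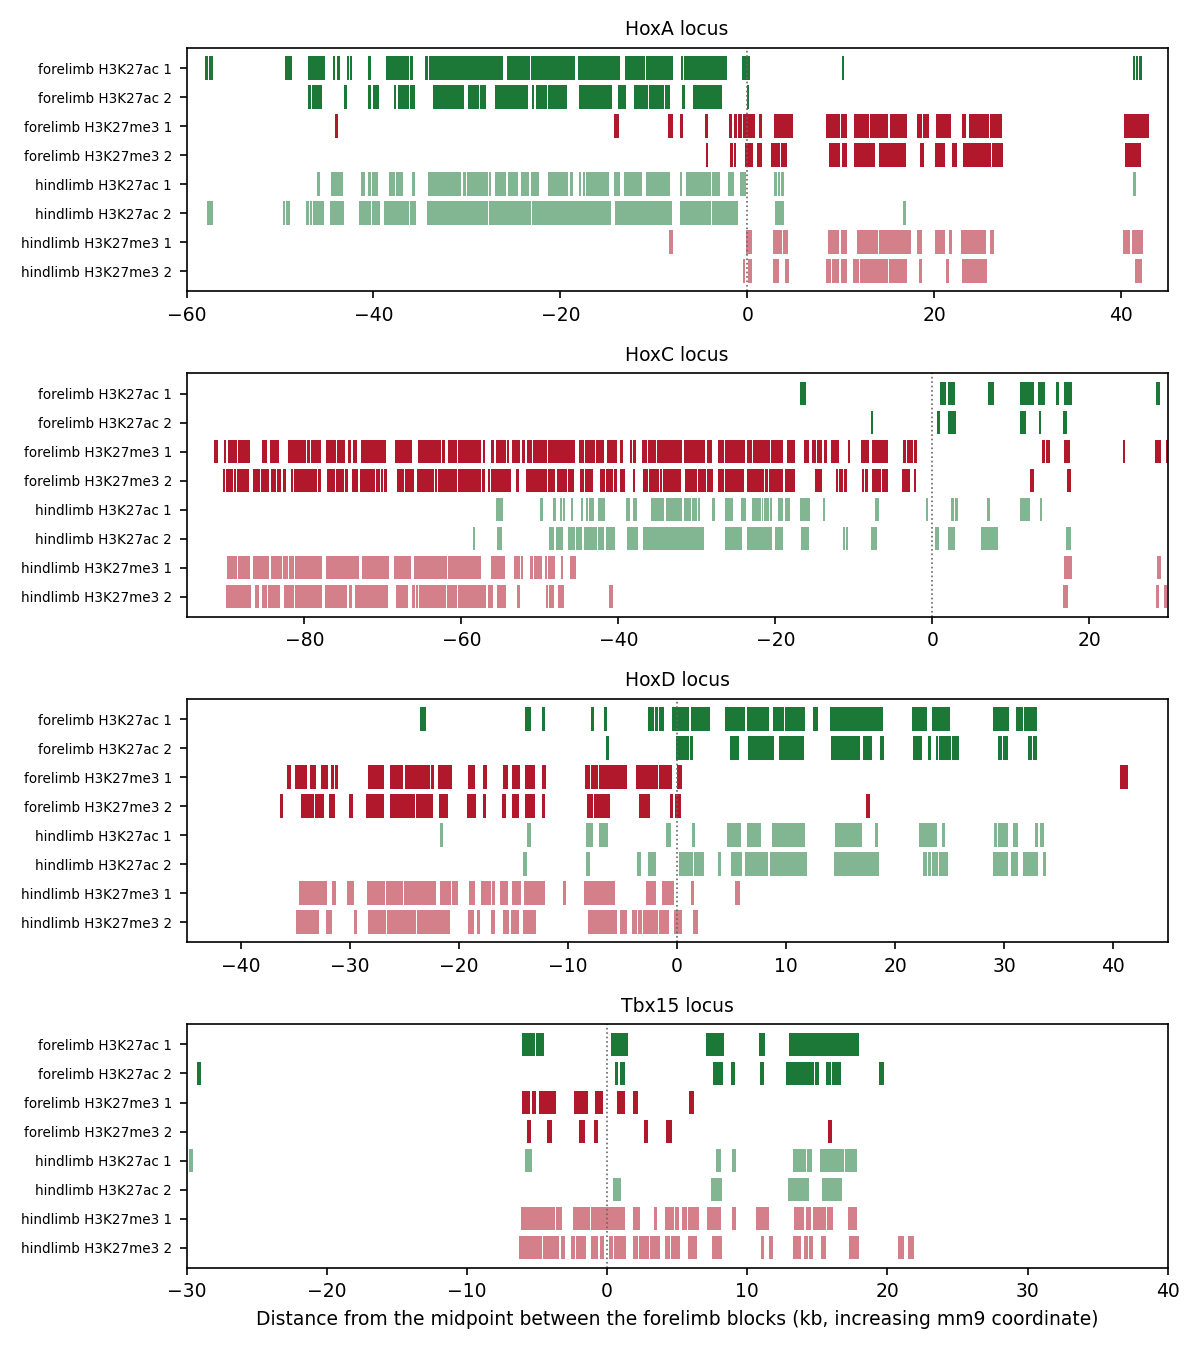
Peaks of the 8 E10.5 lists (rows, 2 limbs by 2 marks by 2 replicates) around the change of mark at HoxA, HoxC, HoxD and Tbx15, against distance in kb from the midpoint between the forelimb blocks. H3K27ac is green, H3K27me3 red, and hindlimb lists are paler. In HoxC the forelimb H3K27me3 lists run up to the midpoint, while hindlimb H3K27ac fills part of the same block (18.8 and 25.1 kb).

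Outside the Hox clusters, 2 boundaries lay at T-box genes. At Tbx3, which is expressed at the anterior and posterior limb margins, 4 H3K27me3 regions (chr5:120106225-120114768, 5.22 and 4.61 kb) were followed after 5.066 kb by an H3K27ac block at chr5:120119835-120123200. At Tbx15, a factor of limb and dermal mesenchyme, H3K27me3 of 3.32 and 1.41 kb (chr3:99038360-99044148) met H3K27ac at chr3:99044659-99062365 with a gap of 0.510 kb. The first H3K27ac list also covered 1.46 kb of the H3K27me3 block at Tbx15, and the second 0 kb.

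The other 13 boundaries were outside the windows. The sharpest of the larger ones was at chr16:17912843-17920979, where H3K27me3 of 4.69 and 4.06 kb met an H3K27ac block at chr16:17921089-17929193 with a gap of 0.109 kb. At chr7:5004002-5009622, H3K27me3 of 5.21 and 4.88 kb was followed after 2.448 kb by a single H3K27ac region at chr7:5012071-5015193. Chromosome 19 held 2, with H3K27me3 on the higher side of chr19:5066911-5072728 and on the lower side of chr19:7015499-7026769. These 2 had gaps of 8.954 and 6.211 kb and no peak of the other mark inside the H3K27me3 block. The boundaries on chromosomes 16 and 7 and the second on chromosome 19 were still found with regions under 1 kb left out, as was HoxD. The gap on chromosome 16 was then 4.827 kb, so its sharpness rested on small regions. At HoxD the blocks were then 1.303 kb apart and no longer overlapped.

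Windows around 42 loci, placed on mm9 from general knowledge, tied the marks to genes. Both H3K27ac lists covered more than both H3K27me3 lists in 12 (28.6%), the reverse held in 21 (50%), and the lists overlapped in 9. Over 10713 bins of 100 kb with any peak, H3K27ac was higher in 45.1% and H3K27me3 in 19%. By regions found in both replicates, 13 windows (31.0%) held both marks, 9 H3K27ac alone, 17 H3K27me3 alone and 3 neither. Among 7009 bins holding a region, 13.7% held both, 62.4% H3K27ac alone and 23.9% H3K27me3 alone. The windows differ in length from the bins and were chosen for developmental genes, so the shares are set side by side only.

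Limb outgrowth and mesenchyme loci were mostly acetylated, in 6 of 8 windows. Prrx1, a mesenchymal homeobox gene, had 7.53 and 5.87 kb of H3K27ac and no H3K27me3. Twist1 had 5.06 and 4.31 kb of H3K27ac and 0 and 0.266 kb of H3K27me3. Meis1, a proximal limb factor, had 8.57 and 5.08 kb against 1.06 and 0 kb, and Fgf10, the mesenchymal signal of outgrowth, 2.27 and 1.21 kb against 0 and 0 kb. Sall4 had 1.91 and 1.29 kb against 0 and 0 kb, and Meis2 4.50 and 4.04 kb against 3.37 and 0.607 kb. The exceptions were Dlx5 and Dlx6, genes of the apical ridge and later cartilage, with 0 and 0 kb of H3K27ac and 22.5 and 20.6 kb of H3K27me3, and Sox9, the chondrogenic factor, where neither mark had a region and the lists overlapped.

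Limb identity loci were mostly trimethylated, in 5 of 6 windows. Tbx5 was the exception, with 22.8 and 17.1 kb of H3K27ac and 0 and 0 kb of H3K27me3. Pitx1, the hindlimb selector gene, had 0 and 0 kb of H3K27ac and 13.8 and 11.9 kb of H3K27me3, and Isl1, a factor of hindlimb initiation, 0 and 0 kb and 10.4 and 9.72 kb. Tbx4, the hindlimb T-box gene, was mixed, with 5.97 and 2.34 kb of H3K27ac and 7.23 and 7.54 kb of H3K27me3. Tbx2 and Tbx3 also held regions of both marks, with 12.8 and 9.13 kb and 7.30 and 4.99 kb of H3K27me3.

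Axis and signalling loci split. H3K27me3 was higher at 4 of 11. Shh, the signal of the posterior polarizing region, had 10.3 and 8.71 kb of H3K27me3 and En1, a ventral ectoderm factor, 21.7 and 20.4 kb, both without H3K27ac. Wnt7a, the dorsal ectoderm signal, had 3.09 and 1.65 kb without H3K27ac, and Fgf8, the apical ridge signal, 8.96 and 7.45 kb beside 0.902 and 0.636 kb of H3K27ac. H3K27ac was higher at 2, Lmx1b (14.9 and 8.37 kb against 2.90 and 2.52 kb) and Gli3, the anterior hedgehog effector (4.67 and 3.62 kb against 0.348 and 0 kb).
At the other 5 (Hand2, Grem1, Msx1, Msx2 and Bmp4) the lists overlapped. Hand2 held 4 H3K27ac and 6 H3K27me3 regions interleaved along the window, with 5.502 and 3.710 kb against 3.98 and 4.24 kb. In 2 places the marks there shared bases. Grem1, a BMP antagonist of posterior mesenchyme, had little of either, with 0.641 and 0 kb of H3K27ac and 0.877 and 0.362 kb of H3K27me3. Msx1 had 3.47 and 1.91 kb against 4.48 and 0.876 kb, Msx2 1.81 and 0.506 kb against 0.556 and 0.510 kb, and the signal gene Bmp4 2.92 and 0.767 kb against 1.96 and 0.841 kb.

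Loci that mark other tissues were mostly covered by H3K27me3. The 5 neural or kidney windows (Pax6, Pax2, Sox2, Nkx2-1 and Foxa2) held H3K27me3 regions alone, from 14.9 and 14.4 kb at Foxa2 to 28.8 and 24.3 kb at Pax2. H3K27ac covered 0 kb in them apart from 0.296 kb at Pax2 in the second list. Gata4 also had H3K27me3 regions alone, as did the muscle factor gene Myod1 (6.93 and 6.03 kb), the neural crest gene Sox10 (2.43 and 2.22 kb) and the endothelial receptor gene Kdr (2.04 and 1.77 kb). Cdh5 of endothelium and Hba of red cells had no region of either mark, so H3K27me3 was not found at every locus of another tissue. The housekeeping genes Actb and Gapdh had 4.02 and 3.51 kb and 3.201 and 2 kb of H3K27ac and 0 kb of H3K27me3 in all forelimb lists. The genes taken as limb mesenchyme and ridge markers were mixed. Prrx1, Twist1 and Fgf10 held H3K27ac regions alone. At Msx1 and Msx2 the lists overlapped, with regions of both marks at Msx1 and 1 H3K27me3 region alone at Msx2. The ridge gene Fgf8 held only 1 small H3K27ac region beside more H3K27me3.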

How the data were processed

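Per the labels' protocols, limb buds were crosslinked with formaldehyde, sheared by sonication and immunoprecipitated. Per the submitters' processing notes, Bowtie 0.12.3, MACS 1.37 and the mm9 build were used. The peaks had passed a p-value of 1e-05, per the file headers, and each library had a list of its own. The score deposited by the authors with each peak was used only to rank peaks within a list, and it started at 50 to the nearest whole number in each forelimb list. The input used for each list is not given in the labels or headers.

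Covered bases, regions, groups, distances, overlaps, blocks, windows and exact permutation tests over lists were computed with Python 3.11.15 and numpy 2.4.6. Wilson intervals were computed with scipy 1.17.1, and chromosome shares were fitted with limma 3.58.1 in R 4.3.3. The scripts were tested on simulated data. Members and lists were chosen with earlier results of these data known. Named regions are the 10 regions and 10 groups per mark with the most covered bases, the 10 largest overlaps and boundaries, the chromosomes called and the 42 windows. Another 8 windows (Tbx15, Zic1 and Zic4, Pax9, Wnt1, Evx1, Igf2, Irx3 and Hist1) were added after the lists were seen. No mm9 gene models were used, so exons and introns are not given and windows come from general knowledge. All 50 windows lay on the chromosome the RefSeq table of GRCm38.p6 gives, and those of all 13 chromosomes with more than 1 followed its order, which does not check their bounds. A stretch without a peak is one that stayed under the authors' threshold.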

Additional observations from a re-analysis of the deposited data

Results flagged for a closer look

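At 6 of the 50 windows both lists of 1 mark exceeded both of the other in forelimb, and the order was opposite in hindlimb. The share of 100 kb bins that turned in this way was not computed. The difference between the limbs was not tested. H3K27ac minus H3K27me3, in mean covered kb per window, was 19.9 at Tbx5 in forelimb and -34.2 in hindlimb. It was -12.9 against 10.8 at Pitx1, -3.23 against 8.16 at Tbx4 and -10.1 against 1.04 at Isl1. At Lmx1b it was 8.91 against -1.32, and at Tbx15, whose window was added after the lists were seen, 3.70 against -9.61. The hindlimb lists at Lmx1b nearly met, with 9.733 and 9.399 kb of H3K27ac against 12.005 and 9.771 kb of H3K27me3. Its forelimb H3K27ac lists, at 14.854 and 8.372 kb, lay on both sides of the hindlimb ones. With 2 lists per mark and limb, single lists could not be examined for outliers.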

How the results depend on the processing

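The 4 list measures that separated H3K27me3 from H3K27ac kept their direction under every alternative run. They were the number of peaks, the 95th percentile of width, peaks of at least 2 kb and peaks in clusters. With the hindlimb lists added they passed 0.05, at -5628 peaks, 1066 bp, 7.26 and 31.8 percentage points. That permutation did not keep the limbs apart, and none within limbs was run. The 95th percentile of width no longer separated the marks with lists of equal length, at 470 bp (exact permutation p = 0.667). Median width turned to -131 bp with lists of equal length and ranged from -18.5 to 122.5 bp without 1 list, and covered sequence from -5.93 to 1.11 Mb.

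With the top 50% of peaks by score, 5060 H3K27ac and 3649 H3K27me3 regions were left, 4.60 and 39.6% were clustered, 3.40 and 5.70% lay near the other mark, 23 overlapped (0.455%) and 5 boundaries were found. With lists of equal length, 5.68% of H3K27ac was clustered, 5.24 and 8.12% lay near and 70 overlapped (1.13%). With 50% covered in each list, 6.88 and 45.2% were clustered, 4.92 and 8.36% lay near and 71 overlapped (1.10%). A merge gap of 1 kb gave 3509 H3K27me3 regions, 3.86 and 9.52% clustered, 13.7% of H3K27me3 near H3K27ac, 2.03% overlapping and 27 boundaries. Joining within 5 kb clustered 7.25 and 43.0%, and within 20 kb 18.3 and 51.4%. Within 5 kb of the other mark lay 3.92 and 7.44%, and within 50 kb 20.1 and 35.1%. Boundaries numbered 6 with blocks at most 5 kb apart, 0 with blocks of at least 4 kb and 5 with regions under 1 kb left out. The cause was not tested where the alternative does not itself shorten the lists.

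Leaving out 1 list of a mark makes each peak of the other a region. Regions ranged from 8514 to 21363 and from 5752 to 12384, clustered shares from 10.3 to 36.7% and from 46.8 to 69.5%, near shares from 5.88 to 9.42% and from 9.89 to 25.6%, overlaps from 119 to 519 (1.36 to 2.43%), boundaries from 14 to 39 and windows with overlapping lists from 4 to 7. Chromosomes called ranged from 2 to 6 toward H3K27me3 and from 3 to 7 toward H3K27ac. By share of peaks, 4 were called toward H3K27me3 and 5 toward H3K27ac.

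Some values with no call in the main comparison changed sign. H3K27ac minus H3K27me3 with lists of equal length was -2.71 kb at HoxD, -0.676 at Hand2, -0.023 at Msx1 and -0.138 at Bmp4, and -0.101 at Bmp4 with the top 50%. Without 1 list it ranged from -4.09 to 5.36 kb at HoxD, -0.397 to 1.40 at Hand2, -0.620 to 0.0215 at Grem1, -1.79 to 1.81 at Msx1, -0.027 to 1.27 at Msx2 and -0.632 to 1.52 at Bmp4. The log2 share became 0.029 on chromosome 1 and -0.023 on chromosome 8 by peaks, 0.026 on chromosome 12 with equal length and -0.035 on chromosome 13 with hindlimb lists. Without 1 list it ranged from -0.073 to 0.020 on chromosome 1, -0.0048 to 0.045 on chromosome 13 and -0.21 to 0.32 on chromosome X. Chromosome X was called with lists of equal length (0.26, limma adjusted p = 0.0085) and chromosome 8 with hindlimb lists (0.064, limma adjusted p = 0.033).

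Deviations of same-numbered lists were close to uncorrelated (correlation 0.0058 over 10713 bins). Nothing says whether same-numbered libraries shared a litter, and this correlation cannot decide it. With a replicate block 6 and 8 chromosomes were again called, while the exact p of a sign-flip test for the number of peaks was 0.5 (difference -6045.5 peaks).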

Other observations

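A window placed around the homeobox gene Evx1 from general knowledge of mm9 held 8 H3K27me3 regions, with 14.6 and 13.4 kb in the forelimb lists and 0 kb of H3K27ac. No mm9 gene model was at hand to check whether these regions belong to Evx1 or to the Hoxa13 end of HoxA. In the hindlimb the H3K27me3 lists covered 13.9 and 12.9 kb of the same window. The Hist1 window held 24 H3K27ac regions and no H3K27me3 in any E10.5 list, with 38.0 and 24.5 kb in forelimb and 21.5 and 36.8 kb in hindlimb. These limbs' H3K27ac lists overlapped. Both windows were added after the lists were seen.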
